A study of Mus musculus with 2 samples.

Results

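The genes described here act in G2 and mitosis, the last part of the cell cycle. They were given by a list of 54 gene names that stand for 53 genes, since Cdc2a is the older name of Cdk1. A probe belonged to the list where the gene name in the scanner output equalled a listed name and the spot was no control. By this rule 50 genes were found, on 89 probes, among 13720 genes tested. Ndc80, Spc24 and Spc25 stand in the scanner output under older names and were matched by accession, so their values are given apart from the counts. Of the 89 probes, 76 were tested, and the other 13 were too dim. No gene was lost through them, as all 50 kept at least 1 tested probe.

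Total RNA of mouse keratinocytes, the main cells of the epidermis, was hybridised to 2 Agilent 2-colour arrays. On both arrays the Cy5 channel held RNA labelled as coming from CHUK-LoxP mutant keratinocytes, in which the Chuk gene was deleted through loxP sites, and the Cy3 channel held RNA of wild-type keratinocytes. The labels number the arrays as replicates 1 and 2 and name no dye swap, so dye and genotype cannot be told apart for any probe. They do not name the Cre, the strain, the age, or whether the replicates were separate cultures. A p-value here sets a mean ratio against the spread between the 2 arrays, which may be technical. That spread is drawn largely from all tested probes together (1 residual and 5.14 prior degrees of freedom), and less from the probe itself. Both channels carry whole cultures, in which fewer dividing cells and less RNA per dividing cell cannot be told apart.

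Chuk encodes IKKα, a kinase needed for the epidermis to mature. Both of its probes gave more Cy5 than Cy3 signal. On arrays 1 and 2 the log2 ratio of Cy5 over Cy3 was 0.73 and 0.75 at the first (adjusted p = 0.000104, limma) and 0.93 and 0.78 at the second (adjusted p = 0.000105, limma). With spike-in centring, described below, the brighter probe lay at -0.026. This goes against the label. Whether the probes lie outside the deleted part is not shown, and dye and genotype cannot be told apart here. The cause was not tested. Every direction below is therefore that of the channel labelled Chuk-deleted. The median spot brightness was 212 and 168 in Cy5 and 108 and 93.6 in Cy3 on arrays 1 and 2.

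Cells enter mitosis when the kinase CDK1, bound to a B-type cyclin, is freed from inhibitory phosphates. The chromosomes are then compacted and attached to the spindle, and a checkpoint holds back the anaphase-promoting complex until every kinetochore is attached. That complex marks securin and cyclin B for destruction, the chromosomes part and cytokinesis follows. Most genes of this program are transcribed late in the cycle under FOXM1, B-MYB and the DREAM complex. In the epidermis they mark dividing cells, which lie mainly in the basal layer, and they are shut off as keratinocytes leave it.

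In the loess-normalised values, G2 and mitosis genes changed little and in both directions. In the Chuk-deleted channel, as labelled, 9 of the 50 genes rose and 18 fell, while 23 did not pass (limma, adjusted p under 0.05). That is 18% higher and 36% lower, against 33.0% and 28.2% of all tested genes, of which 61.2% passed in either direction. No direction can be given to the list as a whole, because the counts follow the centring of the arrays. Centring each array on its median alone gave 40 higher and 0 lower, median centring shifted to the loess median gave 17 and 12, and subtracting the mean of the spike-in controls from the loess values gave 0 and 49. Under median centring alone 9 of the 18 that fell were called higher, and with the spike-in controls 8 of the 9 that rose were called lower, so each direction below is that of the loess values. The shifted centring kept all 9 rises and 11 of the 18 falls, and called 0 of the 27 in the opposite direction. Of the 27 calls, 14 ended with the software's processed signals, among them those of Ccnb1, Aurka, Plk1, Kif20a, Kif4, Prc1, Cenpf, Kif23, Ccna2, Cdc20 and Wee1. An offset of 16 ended those of Ccna2, Cdc20, Kif23 and Mki67, the lack of a filter on dim probes those of Cdc20, Mki67 and Wee1, and the mean over a gene's probes those of Anln, Cenpf, Ncapg and Top2a. Median centring moved the median of all tested genes by 0.53 and spike-in centring moved it by -0.76 (log2).

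Set against that shared shift, the genes lay near the middle of all genes. Their median log2 ratio was -0.060 (-0.066 on array 1 and -0.069 on array 2), and the median over all tested genes was 0.021 (0.013 and 0.029). The gap between these medians was -0.082 under loess, -0.097 with the software's processed signals and 0.0091 with median centring. The interquartile range of the list was -0.20 to 0.092, against -0.19 to 0.23 for all tested genes. At the brightest probe of each gene under loess, the largest change was 1.51-fold, a size that 14.5% of all tested genes exceeded. By the same measure 0 of the 50 changed by 2-fold on both arrays, against 4.71% of all tested genes. Other probes of listed genes went further. Another Smc2 probe rose 1.56-fold, and an Ncapd2 probe under a clone name, outside the counts, lay at 1.03 and 1.24.

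**Figure D1:**
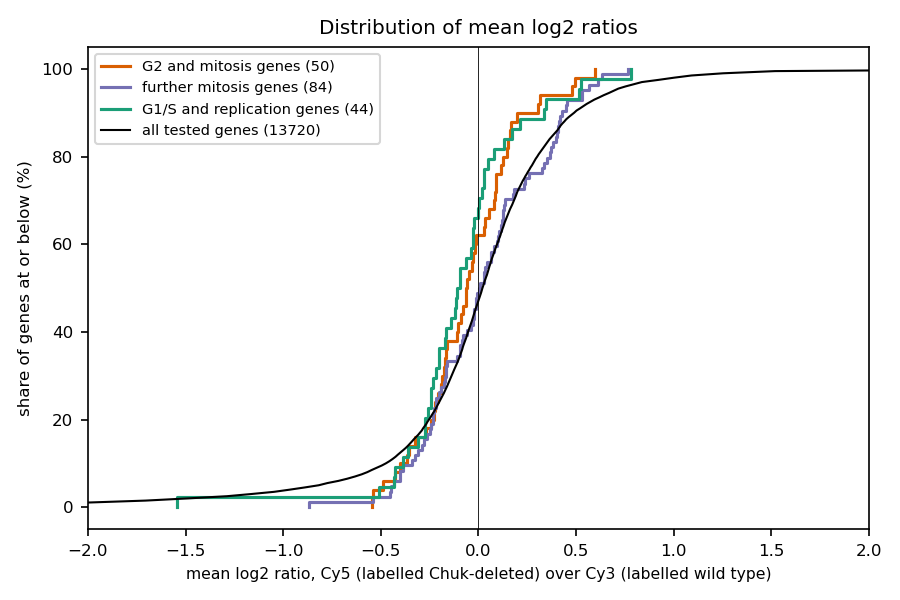
Cumulative share of genes (%, vertical axis) by mean log2 ratio of Cy5 over Cy3 over the 2 arrays (horizontal axis, shown from -2 to 2) for the 50 G2 and mitosis genes, 84 further mitosis genes, 44 G1/S and replication genes and all 13720 tested genes. The curve of the G2 and mitosis genes is steep, with every gene between -0.54 and 0.60, while that of all tested genes has long tails.

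The arrays gave nearly the same values for these genes. The median SD between arrays was 0.040 for the 50 genes and 0.056 over all tested genes, and 46 of 50 (92%) had the same sign on both arrays, against 89.4% of all tested genes. Pearson's r between the arrays was 0.93 across the 50 genes and 0.96 across all tested genes. This is a description across genes that share 2 arrays, 1 slide and 1 scan, and genes are not independent replicates. All 50 were well above background in both channels on both arrays, and no spot of theirs was saturated. For the 23 genes that did not pass, the 95% intervals of the log2 ratio under loess all lay between -0.31 and 0.32. That is between 1.24-fold lower and 1.25-fold higher. These intervals cover the spread between the 2 arrays, and not dye or centring. Among the same genes, spike-in centring put Bub3 at -0.87 and median centring alone put Birc5 at 0.87. The genes that passed had changes down to 1.11-fold.

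A stricter rule asked for 1.3-fold on both arrays in the same direction. It was met by 3 genes upwards, Pttg1, Incenp and Smc2, and by 5 downwards, Cdk1, Nek2, Anln, Mad2l1 and Nusap1. These are 6% and 10% of the list, against 12.8% and 11.6% of all tested genes. The scanner software's own p-value was under 0.01 on both arrays for Pttg1 upwards and Anln downwards alone, against 9.05% and 9.18% of all tested genes in the same directions.

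**Figure D2:**
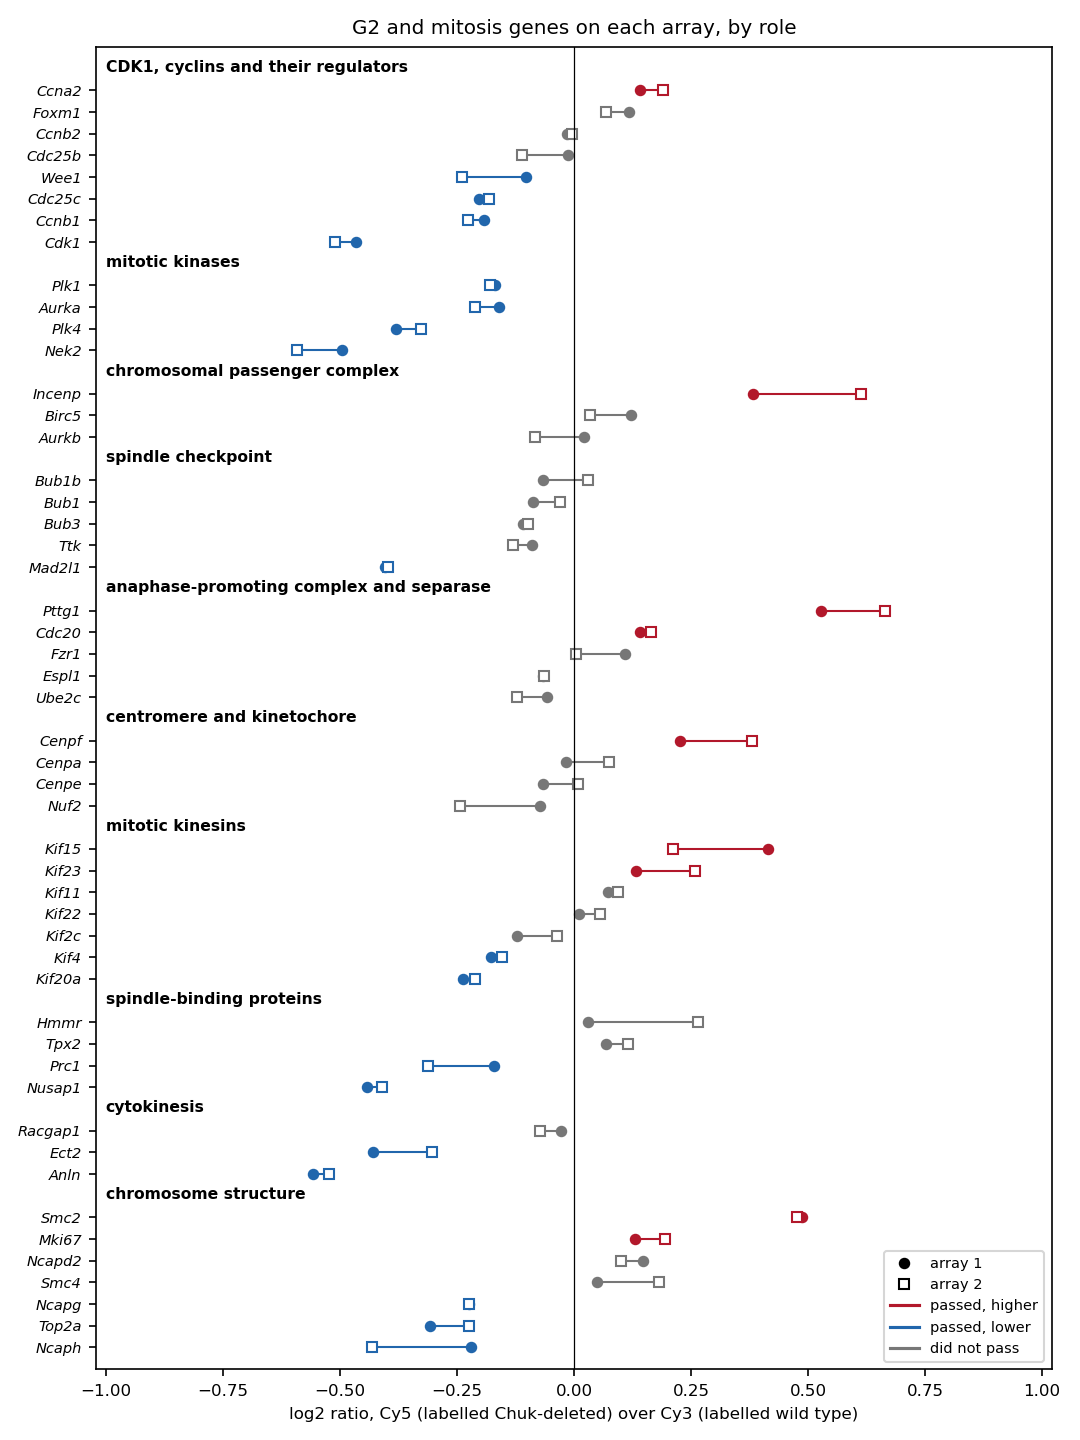
Log2 ratio of Cy5 (labelled Chuk-deleted) over Cy3 (labelled wild type) on array 1 (filled circles) and array 2 (open squares) for each of the 50 genes, grouped by role. A line joins the arrays, and its colour gives the limma call. In these loess values the mitotic kinases lie left of 0 on both arrays (median centring alone puts Nek2, Aurka and Plk1 right of 0), Pttg1 (0.53 and 0.66) lies farthest right and the spindle checkpoint genes other than Mad2l1 lie near 0.

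Promoters of mitotic genes often hold the CHR element (cell cycle genes homology region), which the DREAM complex and B-MYB use, and CCAAT boxes, bound by NF-Y. RefSeq windows (GRCm38.p6, 250 bases before to 50 after the start) were searched on both strands for TTTGAA and for CCAAT. Of the 50 genes 41 matched the table; Ccna2, Cdc25c, Foxm1, Wee1, Aurkb, Incenp, Kif20a, Tpx2 and Smc4 did not. TTTGAA stood in 28 of 41 (68.3%) and in 20.2% of all 27025 genes in the table. CCAAT stood in 31 of 41 (75.6%) and in 41.1% of all. TTTGAA was present in 6 of 7 genes that rose, 9 of 15 that fell and 13 of 19 that did not pass, and CCAAT in 5 of 7, 10 of 15 and 16 of 19. Both groups of changed genes thus held promoters with and without these letters. The following sequences are the 250 bases before the start of 2 genes that rose and 2 that fell, 5′ to 3′ on the gene's strand, taken from the genes past 1.3-fold to show how promoters within this program differ. Capitals mark both motifs on either strand. On the opposite strand TTTGAA reads as TTCAAA, and the CCAAT box reads as ATTGG. The motifs do not overlap here.
Pttg1 (chr11:43425982-43426231, minus strand): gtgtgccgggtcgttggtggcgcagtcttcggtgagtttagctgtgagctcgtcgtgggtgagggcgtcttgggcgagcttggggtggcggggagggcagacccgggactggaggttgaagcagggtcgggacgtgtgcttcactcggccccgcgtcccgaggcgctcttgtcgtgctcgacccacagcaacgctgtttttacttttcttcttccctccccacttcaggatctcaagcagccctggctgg
Smc2 (chr4:52438971-52439220, plus strand): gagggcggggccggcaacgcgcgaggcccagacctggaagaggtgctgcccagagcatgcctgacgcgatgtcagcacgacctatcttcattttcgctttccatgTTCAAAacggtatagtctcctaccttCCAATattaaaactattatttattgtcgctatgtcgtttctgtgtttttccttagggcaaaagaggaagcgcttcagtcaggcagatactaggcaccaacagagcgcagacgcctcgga
Cdk1 (chr10:69352913-69353162, minus strand): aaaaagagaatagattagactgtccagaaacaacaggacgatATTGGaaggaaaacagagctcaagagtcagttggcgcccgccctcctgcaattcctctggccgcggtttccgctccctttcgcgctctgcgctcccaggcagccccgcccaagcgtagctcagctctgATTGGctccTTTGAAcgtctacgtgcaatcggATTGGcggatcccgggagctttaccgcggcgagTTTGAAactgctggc
Nek2 (chr1:191821223-191821472, plus strand): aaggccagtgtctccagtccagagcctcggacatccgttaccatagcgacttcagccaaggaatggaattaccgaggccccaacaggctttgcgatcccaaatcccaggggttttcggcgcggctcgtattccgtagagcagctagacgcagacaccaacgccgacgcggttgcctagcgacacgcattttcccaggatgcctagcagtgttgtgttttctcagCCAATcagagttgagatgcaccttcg
Cdk1, which fell, held TTTGAA at -71 and -15 from the start. It also held the CCAAT box, on the opposite strand, at -208, -80 and -48. Nek2 fell as well, with CCAAT at -26 and, past the printed bases, at 8, and no TTTGAA in its window. Smc2 held both sets of letters and Pttg1 held neither, and both rose. A match is only a run of letters in the window.

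CDK1, its cyclins and the enzymes that set its activity had 4 of 8 genes lower, 1 higher and a median of -0.12 under loess, whereas median centring alone put Cdk1, Ccnb1 and Cdc25c above 0. Cdk1, the kinase that drives entry into mitosis, had raw Cy5 brightness of 3319 and 1890.05 and raw Cy3 brightness of 1714 and 1029 on arrays 1 and 2, which normalised to log2 ratios of -0.47 and -0.51. Cdk1 fell 1.40-fold (mean -0.49 ± 0.032, SD, n = 2, adjusted p = 0.000449, limma), and its arrays differed by far less than its distance from 0. Its second probe was not well above background. Ccnb1, the B-type cyclin that activates CDK1, lay at -0.19 and -0.23 and fell (adjusted p = 0.0132, limma). All 3 of its probes fell, with means from -0.21 to -0.17, whereas Ccnb2, the other B-type cyclin, lay at -0.016 and -0.0042 and did not pass (adjusted p = 0.877, limma). Ccna2, the A-type cyclin of S phase and G2, lay at 0.14 and 0.19 and rose 1.12-fold (adjusted p = 0.0319, limma).

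The phosphatases that remove the inhibitory phosphates gave mixed values. Cdc25c fell, at -0.20 and -0.18, and both of its probes passed. The brightest probe of Cdc25b lay at -0.013 and -0.11 and did not pass (adjusted p = 0.358, limma), while a second probe of the same gene lay at -0.58 and -0.56 and fell (adjusted p = 0.000241, limma). Wee1, the kinase that adds the inhibitory phosphate, lay at -0.10 and -0.24 and fell (adjusted p = 0.0423, limma), close to the threshold. Foxm1, the transcription factor of the late cell cycle, lay at 0.12 and 0.068 and did not pass (adjusted p = 0.168, limma).

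The 4 mitotic kinases outside the other groups all fell under loess, with a median of -0.27, while median centring alone put Nek2, Aurka and Plk1 above 0. Nek2, which helps to part the centrosomes, had raw Cy5 brightness of 1949.6 and 1092 and raw Cy3 brightness of 1051 and 648 on arrays 1 and 2. Its log2 ratios were -0.50 and -0.59, and Nek2 fell 1.46-fold (mean -0.54 ± 0.068, SD, n = 2, adjusted p = 0.000362, limma), the lowest mean of all 50 genes. Plk4, the kinase that starts centriole duplication, lay at -0.38 and -0.33 on its brightest probe and fell 1.28-fold (adjusted p = 0.00166, limma), while its second tested probe, at 0.073 and -0.097, did not pass. The falls of Aurka, which builds the spindle poles, and of Plk1, which acts from mitotic entry to cytokinesis, were small. Aurka lay at -0.16 and -0.21 and Plk1 at -0.17 and -0.18. Once median centring was shifted to the loess median, these 2 genes lay at 0.033 and 0.025.

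In the chromosomal passenger complex, which corrects faulty attachments of chromosomes to the spindle, 1 of 3 genes rose. Incenp, the scaffold of the complex, had raw Cy5 brightness of 71916 and 47903 and raw Cy3 brightness of 17838 and 10651 on arrays 1 and 2, with log2 ratios of 0.38 and 0.61. Incenp rose 1.41-fold (mean 0.50 ± 0.16, SD, n = 2, adjusted p = 0.00128, limma), and its arrays lay further apart than those of most listed genes. The kinase gene Aurkb (0.022 and -0.084) and the survivin gene Birc5 (0.12 and 0.034), whose products bind INCENP, did not pass.

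Of the 5 spindle checkpoint genes 1 fell under loess, where their median was -0.10, and median centring alone put that gene, Mad2l1, at 0.17. Mad2l1, whose product MAD2 binds and holds CDC20 until the kinetochores are attached, lay at -0.40 on each array and fell 1.32-fold (adjusted p = 0.000912, limma), and its second probe fell too (-0.28 and -0.19). The checkpoint kinase genes Ttk (-0.090 and -0.13) and Bub1 (-0.088 and -0.029) and their partners Bub1b (-0.065 and 0.030) and Bub3 (-0.11 and -0.098) did not pass. Another Bub3 probe, assigned to a cDNA clone, lay at 0.46 and 0.37 and rose (adjusted p = 0.00103, limma).

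Among the genes of separase and of proteins that act with the anaphase-promoting complex 2 of 5 rose and 0 fell. Subunits of the complex itself were not in this group. Pttg1 encodes securin, which holds separase inactive until anaphase. Its raw Cy5 brightness was 35870.3 and 19048 and its raw Cy3 brightness 8441 and 4256 on arrays 1 and 2, which gave log2 ratios of 0.53 and 0.66. Pttg1 rose 1.51-fold (mean 0.60 ± 0.096, SD, n = 2, adjusted p = 0.000321, limma), the highest mean of the 50 genes. Espl1, the gene of separase itself, lay at -0.067 and -0.065 and did not pass (adjusted p = 0.303, limma). Cdc20, the activator of the complex that the checkpoint restrains, lay at 0.14 and 0.16 and rose 1.11-fold (adjusted p = 0.0404, limma). Fzr1, whose product CDH1 takes over as activator at mitotic exit, did not pass on its brightest probe (0.11 and 0.0054), while its second probe fell (-0.16 and -0.21, adjusted p = 0.0214, limma). Ube2c, the ubiquitin-conjugating enzyme of the complex, lay at -0.058 and -0.12 and did not pass.

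Of the 4 centromere and kinetochore genes found by name 1 rose and 0 fell. Cenpf, a large kinetochore protein that builds up in G2, lay at 0.23 and 0.38 and rose 1.23-fold (adjusted p = 0.00535, limma). Its dimmer probe lay at -0.24 and 0.044 and did not pass. Cenpa, the histone H3 variant of centromeres (-0.016 and 0.076), and Cenpe, a kinetochore motor (-0.066 and 0.0078), did not pass, and none of the 3 Cenpe probes passed. The 4 subunits of the NDC80 complex, which grips spindle microtubules, did not share a direction. Nuf2 lay at -0.073 and -0.24 and Ndc80 at 0.024 and 0.046, and neither passed (adjusted p = 0.0643 and 0.575, limma). Spc25 lay at -0.31 and -0.39 and fell 1.28-fold (adjusted p = 0.00184, limma), while Spc24 lay at 0.19 on each array and rose 1.14-fold (adjusted p = 0.0191, limma).

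Of 7 mitotic kinesins, the motors that move along spindle microtubules, 2 rose and 2 fell. Kif15, which helps to keep the spindle bipolar, lay at 0.42 and 0.21 and rose 1.24-fold (adjusted p = 0.00687, limma), and Kif23, a motor of the central spindle, lay at 0.13 and 0.26 and rose (adjusted p = 0.0247, limma). For each of them both tested probes rose. Kif20a, which carries the passenger complex to the central spindle, lay at -0.24 and -0.21 and fell 1.17-fold. The chromokinesin gene Kif4 lay at -0.18 and -0.15 and fell 1.12-fold (adjusted p = 0.0311, limma), and both probes of each of these genes fell. The motor gene Kif11, which pushes the spindle poles apart, did not pass on its brightest probe (0.072 and 0.094), although a probe of a cDNA clone lay at 0.64 and 0.57 and rose (adjusted p = 0.000227, limma). The chromokinesin gene Kif22 (0.011 and 0.056) and the microtubule depolymerase gene Kif2c (-0.12 and -0.035) did not pass.

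Proteins that bind and bundle spindle microtubules had 2 of 4 genes lower and 0 higher. Nusap1 lay at -0.44 and -0.41 and fell 1.34-fold (adjusted p = 0.000744, limma). Prc1, which crosslinks the central spindle, lay at -0.17 and -0.31 and fell (adjusted p = 0.0123, limma). Tpx2, whose product activates Aurora A, lay at 0.068 and 0.11 and did not pass. Hmmr, a hyaluronan receptor that also binds the spindle, had the widest spread of the list, at 0.030 and 0.26, and did not pass (adjusted p = 0.111, limma).

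Of the 3 cytokinesis genes 2 fell under loess, and median centring alone put Ect2 at 0.25. Ect2, the exchange factor that activates RhoA at the cleavage furrow, lay at -0.43 and -0.30 and fell 1.29-fold (adjusted p = 0.00204, limma). Racgap1, which brings ECT2 to the central spindle, lay at -0.027 and -0.073 on its brightest probe and did not pass. Anln encodes anillin, the scaffold of the contractile ring. The brightest Anln probe had raw Cy5 brightness of 968 and 599.6 and raw Cy3 brightness of 565 and 357 on arrays 1 and 2, with log2 ratios of -0.56 and -0.52, a 1.45-fold fall (adjusted p = 0.0003, limma). The other Anln probe lay at 0.42 and 0.34 and rose (adjusted p = 0.00137, limma), so the direction of Anln differs between its probes.

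Of 7 chromosome structure genes 2 rose and 3 fell, and condensin held genes of both kinds. Smc2 and Smc4 form the core of condensin, and Ncapd2, Ncapg and Ncaph complete condensin I. Smc2 had raw Cy5 brightness of 2378 and 1045 and raw Cy3 brightness of 654 and 308 on arrays 1 and 2. Its brightest probe lay at 0.49 and 0.48 and rose 1.40-fold (adjusted p = 0.000445, limma), a second probe rose too (0.56 and 0.72), and the last lay at -0.26 and -0.29 and fell (adjusted p = 0.00424, limma). Smc4 lay at 0.049 and 0.18 and Ncapd2 at 0.15 and 0.10, and neither passed on its brightest probe, while a dimmer probe of each rose. Ncaph lay at -0.22 and -0.43 and fell 1.25-fold (adjusted p = 0.00621, limma). Ncapg fell on its brighter probe, at -0.22 and -0.23 (adjusted p = 0.00964, limma), and rose on the dimmer, at 0.12 and 0.22 (adjusted p = 0.0364, limma). Both falls ended with the software's processed signals (Ncaph -0.41, Ncapg -0.20), and that of Ncapg also with the mean over its probes (-0.028).

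Top2a, the topoisomerase that untangles sister chromatids, lay at -0.31 and -0.22 and fell 1.20-fold (adjusted p = 0.00597, limma), while its second tested probe did not pass. Mki67, the gene of the Ki-67 antigen by which dividing cells are counted in tissue, lay at 0.13 and 0.19 and rose 1.12-fold (adjusted p = 0.0365, limma), with both probes higher. The Mki67 call ended with an offset of 16 (0.16), with the software's signals (0.17) and without the filter on dim probes, and the Top2a call ended with the mean over its probes (-0.069).

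Probes of the same gene set a limit on single directions. Of the 50 genes 22 had several tested probes. In 3 of these (13.6%), Smc2, Anln and Ncapg, probes were called in opposite directions, against 9.82% of the 5521 genes with several tested probes on the array. The median distance between the highest and the lowest probe of a gene was 0.22 for the 22 genes and 0.24 for all such genes. It passed 0.5 in 5 genes, Smc2, Anln, Kif11, Bub3 and Cdc25b. In 8 genes, among them Ccnb1, Kif23 and Mki67, all tested probes passed in the same direction. For the counts of 5 and 8 genes, the shares over all genes with several tested probes were not counted. Neither count therefore shows a trait of the listed genes. Of the tested probes 67 were assigned to RefSeq records (13 higher, 24 lower, median -0.062) and 9 to GenBank clones (6 higher, 3 lower, median 0.17). The shares over all tested probes of each kind were not counted, so these counts show no trait of the listed genes. A further probe of Ncapd2, listed under a clone name and outside the counts, lay at 1.03 and 1.24 (adjusted p = 6.29e-05, limma). Where the probes lie in their transcripts was not analysed here.

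**Figure D3:**
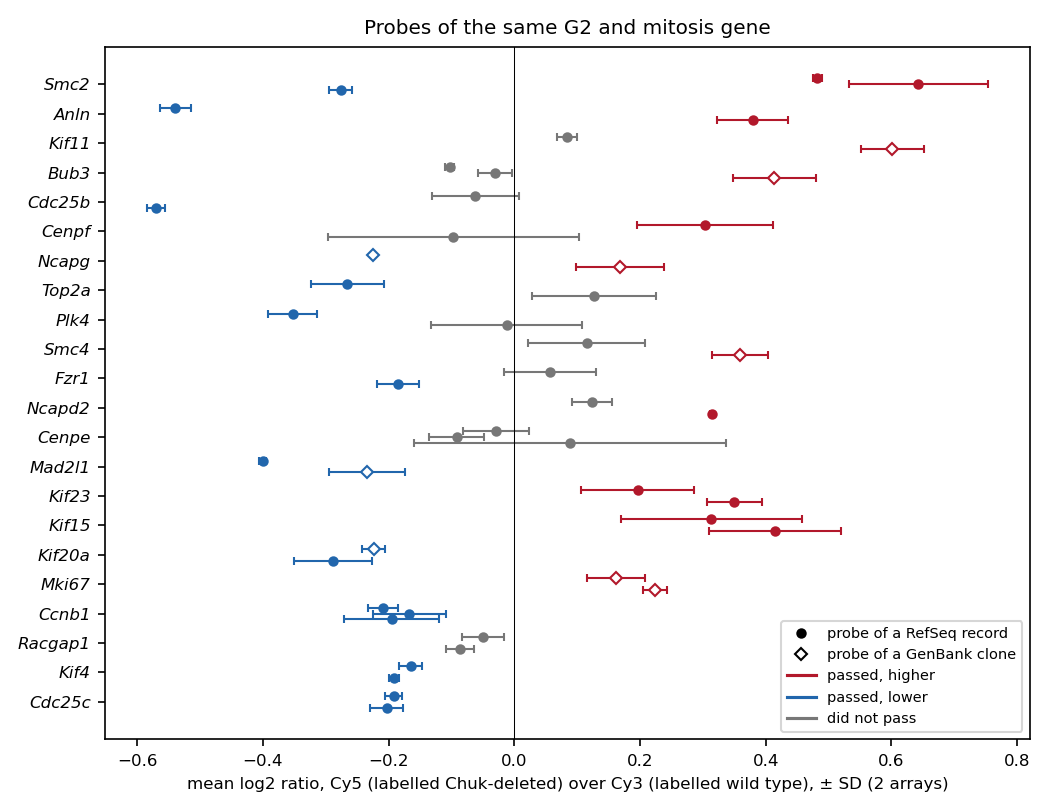
Mean log2 ratio with the SD of the 2 arrays for every tested probe of the 22 genes with several tested probes, ordered from the gene whose probes differ most. Filled circles are probes of RefSeq records, open diamonds probes of GenBank clones, and colour gives the limma call. The probes of Smc2 and Anln lie on both sides of 0, while those of Ccnb1, Kif4 and Cdc25c nearly coincide.

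A second list of 105 mitosis genes, drawn from the same processes, held 84 tested genes by name. Of these 24 rose and 28 fell (28.6% and 33.3%, beside 33.0% and 28.2% of all tested genes), with a median of 0.0055. The largest rises were those of the cohesin gene Stag2 (1.01 and 0.53), the lamin gene Lmnb1 (0.58 and 0.69), the citron kinase gene Cit (0.60 and 0.63), which acts in cytokinesis, and the kinetochore gene Cenpt (0.51 and 0.63). The mean over all Stag2 probes lay at -0.024, so its rise rests on its brightest probe. The largest falls were those of Lin9, a subunit of the complex through which B-MYB acts (-0.91 and -0.83), the centromere gene Oip5 (-0.43 and -0.66), the spindle pole gene Numa1 (-0.47 and -0.43) and the kinesin gene Kifc1 (-0.40 and -0.50). Lin9 fell 1.82-fold (adjusted p = 7.39e-05, limma), further than the brightest probe of any gene of the first list. At 1.3-fold on both arrays 10 of the 84 were higher and 6 lower, and on array 2 alone, without array 1, 18 were higher. Matched by accession or synonym as well, all 105 were tested, 27 rose and 31 fell.

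Among 44 tested genes of G1/S and DNA replication, the preceding stage of the cycle, 7 rose and 18 fell (15.9% and 40.9%, beside 33.0% and 28.2% of all tested genes), and the median lay at -0.10. Median centring alone called 39 higher and 2 lower, the shifted centring 9 and 8, spike-in centring 0 and 42, and the software's signals 6 and 11. The primase gene Prim2 (0.72 and 0.84), the polymerase gene Pold1 (0.41 and 0.64), E2f1 (0.42 and 0.61) and the ribonucleotide reductase gene Rrm2 (0.32 and 0.38) rose most. E2f2, a transcription factor of S phase genes (-1.12 and -1.97), the helicase gene Mcm3 (-0.44 and -0.58), the cyclin gene Ccne1 (-0.44 and -0.43) and Cdk2 (-0.41 and -0.44) fell most. E2f2 fell 2.91-fold (adjusted p = 0.000625, limma). Whether the lists differ from each other was not tested.

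**Figure D4:**
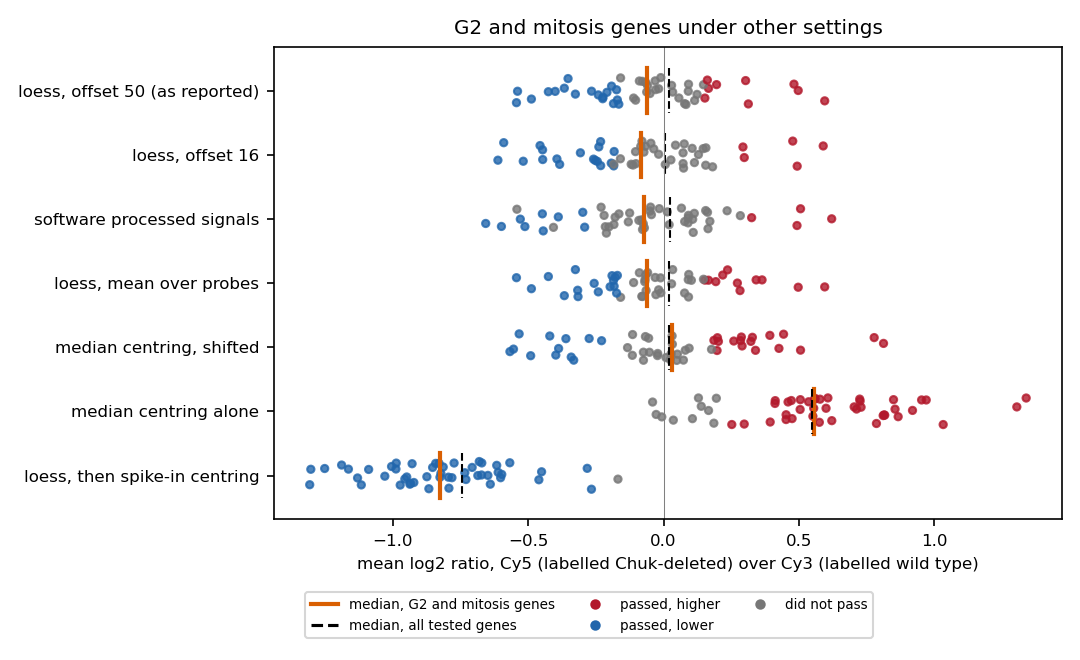
Mean log2 ratio of each of the 50 genes (points, coloured by limma call) under 7 settings, with the median of the 50 genes (solid bar) and of all tested genes (dashed bar). Both bars move together, from -0.82 and -0.74 with spike-in centring to 0.56 and 0.55 with median centring alone, and stay within 0.1 of each other.

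Markers of cell types were read from the same loess values. Spike-in centring moved the median of all tested genes by -0.76 (log2), and median centring moved it by 0.53. Marker ratios smaller than these shifts have no sure direction. The counts below stand beside 33.0% higher and 28.2% lower of all tested genes. Krt5 and Krt14, keratins of basal keratinocytes, were well above background in both channels on both arrays. All 8 markers of suprabasal keratinocytes fell (means -2.90 to -0.25), led by Tgm1 (-2.31 and -3.50) and Lor (-2.20 and -3.45). Among these, Krt1 (-0.36 and -0.38) was tested through Cy3 alone, because Cy5 cleared the background on neither array. The size of the Krt1 fall is therefore uncertain, and another Krt1 probe was too dim to be tested. Of 9 tested keratinocyte markers 6 rose, led by Itgb4 (1.29 and 1.84) and Col17a1 (1.20 and 1.51), and 3 fell (means -0.91 to 1.57). The 3 that fell were Dsp (-0.86 and -0.95), Perp (-0.49 and -0.77) and Cdh1 (-0.20 and -0.99). Fibroblast markers rose in 6 of 8, led by Fbn1 (1.09 and 1.45) and Thy1 (0.96 and 1.26), and fell in 1, Dcn (-0.62 and -0.57). Their means ran from -0.60 to 1.27. Melanocyte markers fell in 5 of 5, led by Mlana (-1.53 and -1.87) and Dct (-1.40 and -1.46), over a range of -1.70 to -0.16. Of 6 macrophage and Langerhans cell markers 2 were tested by name, Csf1r (-0.83 and -0.79) and Cd68 (0.17 and 0.082). Cy5 was well above background for Csf1r on 1 array, and Cd207 was not well above background in either channel. Matched by accession or synonym as well, 4 of these markers were tested and 3 fell (median -0.91). In the same way 10 keratinocyte markers were tested, of which 6 rose and 4 fell, and 6 of 6 melanocyte markers fell. Of 4 endothelial markers Kdr alone was tested (0.20 and 0.22). The part of these shifts in the values of the mitosis genes was not tested.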

How the data were processed

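Per the file headers, spots were read with version 9.1.3.1 of Agilent's Feature Extraction software. The deposited intensity values are the mean spot brightness and the median local background of each channel, and a processed intensity that the software background-subtracted and dye-normalised within the array, per the file headers. Also deposited are the log10 of the processed red over green signal and its p-value, computed within a single array. The deposited table of series values equalled the log10 ratio within 0.005. The deposited flags for background, saturation and outliers, the control type and the gene name were also used.

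Background was corrected by normexp (offset 50), ratios were normalised by loess with control spots at weight 0, and outlier spots were left out (51 and 18), in R 4.3.3 with limma 3.58.1. Of 41174 probes, 23540 rose well above background, in 1 channel or both, on each array and were tested by lmFit and eBayes (1 residual and 5.14 prior degrees of freedom), two-sided, and p-values were adjusted by Benjamini-Hochberg across these probes, with a threshold of 0.05. The procedure was tested on simulated data. A gene stands for its brightest tested probe. Names were updated with a RefSeq table (GRCm38.p6) for 16148 tested probes by accession and 4722 by symbol or synonym, 579 kept the file's name, and 2091 had none. Members were matched by the file's gene name. Named with values on both arrays were Chuk, members with a call, with opposed probes or at the ends of their role group, up to 4 called genes per direction from each further list, and the 2 largest of each marker list. The keratinocyte and fibroblast markers that fell were named as well. The alternatives were another offset, the software's signals and p-value, 3 other centrings, other probe filters, priors, names and probe summaries, a fold rule, and each array alone. The members and lists were chosen with earlier results of these data known.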

Additional observations from a re-analysis of the deposited data

How the results depend on the processing

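The centring of the arrays changed the directions set against 0. Median centring alone called 40 G2 and mitosis genes higher and 0 lower, at a median of 0.56, with 76 and 1 of the further mitosis genes and counted 10245 for all tested genes higher and 993 for all tested genes lower. Spike-in centring called 0 higher and 49 lower, at a median of -0.82, with 0 and 78 of the further mitosis genes and counted 273 and 12490 of all tested genes. Median centring shifted to the loess median called 17 higher, at a median of 0.030, and 17 further mitosis genes lower. Among the G2 and mitosis genes it kept all 9 higher and 11 of the 18 lower calls, and turned 0 calls to the opposite. Mean log2 ratios that turned positive under median centring alone were Nek2 0.036, Ttk 0.11, Cdk1 0.13, Cdc25c 0.14, Mad2l1 0.17, Nusap1 0.19, Ncaph 0.20, Kifc1 0.21, Mcm3 0.23, Ect2 0.25, Ccne1 0.26, Top2a 0.30, Numa1 0.37, Ccnb1 0.41, Kif2c 0.41, Nuf2 0.45, Ncapg 0.45, Prc1 0.46, Kif4 0.47, Espl1 0.48, Aurkb 0.50, Kif20a 0.51, Bub1 0.54, Plk1 0.55, Bub1b 0.56, Racgap1 0.56, Aurka 0.56, Cdc25b 0.58, Ube2c 0.58, Bub3 0.61, Ccnb2 0.71 and Cenpe 0.73. Mean log2 ratios that turned negative with spike-in centring were Cenpa -0.73, Kif22 -0.73, Fzr1 -0.71, Birc5 -0.69, Kif11 -0.68, Tpx2 -0.67, Foxm1 -0.67, Smc4 -0.65, Ncapd2 -0.64, Cd68 -0.64, Hmmr -0.62, Cdc20 -0.61, Mki67 -0.60, Ccna2 -0.60, Kif23 -0.57, Kdr -0.55, Cenpf -0.46, Kif15 -0.45, Rrm2 -0.42, Smc2 -0.28, Incenp -0.27, E2f1 -0.25, Pold1 -0.24, Cenpt -0.19, Pttg1 -0.17, Cit -0.15, Lmnb1 -0.13 and Chuk -0.026. With the shifted centring signs turned for Plk1 0.025, Aurka 0.033, Ccnb2 0.19 and Cenpe 0.20, and, with no call in either setting, for Bub1 0.0091, Bub1b 0.028, Racgap1 0.032, Cdc25b 0.049, Ube2c 0.051, Bub3 0.080 and Kif11 -0.13. With the mean over probes they turned for Stag2 -0.024, Fzr1 -0.064 and Bub3 0.093, and with the software's processed signals for Ccnb2 0.014. Spike-in centring by construction lowers every gene on an array by the same amount; for the other settings the cause was not tested.

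An offset of 16 called 5 higher, at a median of -0.082. The software's processed signals called 4 higher and 9 lower, at a median of -0.073, and 17 further mitosis genes lower. The 1.3-fold rule kept 3 and 5 genes, 10 and 6 of the further list and 1755 and 1595 of all. The software's p-value kept 1 and 1, 3 and 1 of the further list and 1242 and 1260 of all. On a single array the median ran from -0.069 to -0.066, with no test. No filter on dim probes, both channels above background, another prior and names by accession turned no sign among the 50 genes, but without the filter 7 were called higher and 17 lower, as Cdc20, Mki67 and Wee1 lost their calls. No paired analysis was possible because each ratio already sets both channels of 1 array against each other. With 2 arrays, 1 dye orientation and 1 residual degree of freedom, precision is limited.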
